A study of Homo sapiens with 8 samples.

Results

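The 10 genes described here encode the nucleases of the RNA exosome and the proteins that bring nuclear RNA to it: DIS3, DIS3L, MPHOSPH6, MTREX (also SKIV2L2), RBM7, ZCCHC8, ZFC3H1, ZCCHC7, TENT4A (also PAPD7) and TENT4B (also PAPD5). They were chosen by symbol, through the RefSeq accessions of the deposited tables. Their values were not a criterion, but earlier results of these data were known. They account for 22 of 49235 transcripts and for 10 of 26588 genes. All 10 passed the minimum mean of 1 FPKM (fragments per kilobase of transcript, scaled to the fragments of the library), as did 13387 genes in all. For 4 of them (MPHOSPH6, MTREX, ZCCHC8 and ZFC3H1) the tables hold 1 transcript, and for the other 6 the FPKM of the transcripts were summed.

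The RNA exosome is a barrel of non-catalytic subunits that passes RNA to a 3′ to 5′ nuclease: DIS3 in the nucleus, DIS3L in the cytoplasm, and EXOSC10 as a further nuclease of the nuclear form. MPHOSPH6 helps to dock the helicase MTREX on the nuclear exosome, and MTREX unwinds RNA on its way in. MTREX works in separate adaptor complexes: with RBM7 and ZCCHC8 (NEXT, for promoter upstream transcripts and other short unprocessed RNA), with ZFC3H1 and the poly(A) binding protein PABPN1 (PAXT, for longer polyadenylated nuclear RNA), and with ZCCHC7 and a non-canonical poly(A) polymerase, TENT4B (TRAMP, best known in the nucleolus). TENT4A is the close paralog of TENT4B, and both also add mixed tails to mRNA.

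The samples were H1 cells, a long established line of human embryonic stem cells, grown without feeder cells on Matrigel in low oxygen, with basic fibroblast growth factor and with puromycin at 0.8 mg/ml as the labels write it. A line with a hairpin against EXOSC3 (shEXOSC3), a core subunit of the exosome, and a line with a non-silencing hairpin (shNS) were each grown with doxycycline, which switches the hairpin on (2 mg/ml as the labels write it), or without it, for 5 or 7 days. This gives 8 groups with 1 library each, so no difference below has a replicate check, and the labels do not say whether a line is 1 clone or a pool. All 8 libraries were total RNA depleted of ribosomal RNA.

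The tables give no read totals. The smallest steps between low FPKM values put the depth of the doxycycline library at 1.01 and 0.922 times that of its untreated partner in shEXOSC3 (days 5 and 7) and at 1.59 and 1.33 times in shNS. EXOSC3 itself had 25.2 FPKM without and 11.3 with doxycycline on day 5, and 25.2 and 12.3 on day 7, in the shEXOSC3 line, which leaves 45.0% and 48.9% of the untreated level; the 4 shNS libraries lay between 27.3 and 30.3 FPKM. Of 8 markers of embryonic stem cells, 7 were measured, and all 7 had a mean of at least 1 FPKM. Their summed level was 1535 and 1582 FPKM in the knockdown libraries (shEXOSC3 with doxycycline) against 1667 to 1983 FPKM in the other 6. The sum was lower with doxycycline in both lines: it was 1946 and 1535 FPKM without and with doxycycline on day 5 and 1983 and 1582 on day 7 with the EXOSC3 hairpin, and 1900 and 1667, then 1960 and 1706, with the control hairpin. Its part in the results below was not tested. All 4 mesoderm and primitive streak markers and all 4 endoderm markers had a mean below 1 FPKM. Of 4 neuroectoderm markers only NES passed that mean, with the list's sum at 65.0 to 105 FPKM in the knockdown libraries and 82.1 to 105 FPKM in the others. Of 4 trophectoderm markers only KRT7 passed it (sums of 8.87 to 8.96 against 7.70 to 10.3 FPKM), with CGB5 at 0. Of 6 fibroblast and stromal markers 3 passed it (sums of 28.1 to 29.9 against 17.4 to 31.2 FPKM), and DCN and LUM were at 0 in all 8 libraries. In bulk RNA, fewer cells of a type and less RNA per cell cannot be told apart.

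The question the design puts to these genes is whether the exosome's other nucleases and its targeting cofactors shift when a core subunit is depleted. ZFC3H1, the PAXT scaffold, stood higher with the EXOSC3 hairpin on, on both days. MPHOSPH6, the docking protein, stood lower on both days. TENT4A and the NEXT scaffold ZCCHC8 were also higher on both days, by less. The helicase MTREX and the poly(A) polymerase TENT4B lay within 0.23 (log2) of the shNS response on both days. None of these differences passed the test over all genes.

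Each response is given as log2((FPKM + 1)/(FPKM + 1)) of the doxycycline library over the untreated one of the same line and day, which understates differences of genes with low FPKM. The adjusted log2 difference is that ratio in shEXOSC3 minus the ratio in shNS on the same day. Day averages were tested with limma on the 4 ratios of every gene, with p-values adjusted over 13387 genes by the Benjamini-Hochberg method. Since a day is a time point and no replicate, the spread it measures is that between days.

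**Figure D1:**
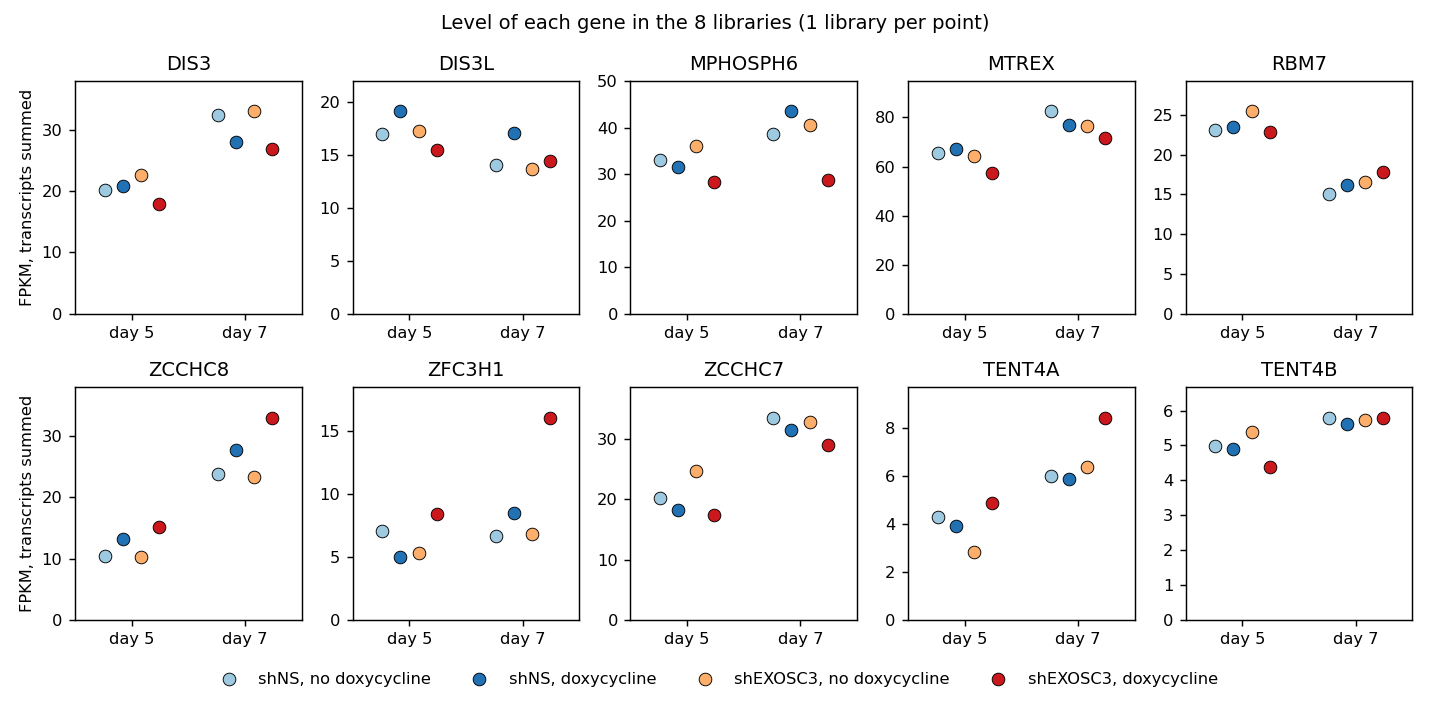
FPKM (y axis, summed over transcripts) of each of the 10 genes in the 8 libraries, by line, doxycycline and day; each point is 1 library and there are no error bars. ZFC3H1 is highest in the shEXOSC3 library with doxycycline on each day (8.44 and 16.1 FPKM), and MPHOSPH6 is lowest there (28.4 and 28.7 FPKM).

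Among the nucleases, DIS3, which holds both exonuclease and endonuclease activity, had 22.7 FPKM without and 17.9 with doxycycline on day 5 in shEXOSC3, and 33.1 and 26.9 FPKM on day 7. Its shNS values were 20.2 and 20.9 FPKM on day 5 and 32.4 and 28.1 FPKM on day 7. The knockdown library was the lowest of its day both times. The adjusted log2 difference of DIS3 was -0.37 on day 5 and -0.09 on day 7, with a day average of -0.23 ± 0.13 (SE, limma, unadjusted p = 0.151, adjusted p = 0.7503).

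DIS3 has a pair of RefSeq transcripts that differ in an internal coding exon. They are shown because the tables divide the gene's FPKM between them. In each line below the capitals mark the exon that the other transcript lacks, and the lower-case letters are the 15 bases on either side in the spliced transcript. NM_014953 (158 bases, GRCh38 chr13:72780846-72781003, minus strand) carries a coding sequence of 2874 bases, and NM_001128226 (68 bases, GRCh38 chr13:72781289-72781356, minus strand) one of 2784 bases.
DIS3 NM_014953: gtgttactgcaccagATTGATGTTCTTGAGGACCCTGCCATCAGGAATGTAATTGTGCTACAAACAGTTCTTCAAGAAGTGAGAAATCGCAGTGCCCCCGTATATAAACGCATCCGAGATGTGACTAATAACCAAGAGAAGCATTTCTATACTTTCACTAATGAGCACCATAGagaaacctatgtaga
DIS3 NM_001128226: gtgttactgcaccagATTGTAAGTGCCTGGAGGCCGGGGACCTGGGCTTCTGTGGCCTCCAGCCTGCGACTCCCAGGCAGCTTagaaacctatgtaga
The transcript with the 158 base exon, NM_014953, held 85.0% to 93.3% of the gene's FPKM in the 8 libraries. The lowest share was in untreated shNS on day 7, and the shares of both knockdown libraries lay inside the range of the other 6.

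DIS3L, the cytoplasmic nuclease, had 17.3 and 15.4 FPKM (without and with doxycycline) on day 5 and 13.7 and 14.4 FPKM on day 7 in the shEXOSC3 line. With the control hairpin the values were 16.9 and 19.1 FPKM on day 5 and 14.1 and 17.1 FPKM on day 7. The gene was higher with doxycycline in shNS on both days and not in shEXOSC3 on day 5, which gives adjusted log2 differences of -0.32 and -0.19. The day average was -0.25 ± 0.13 (SE, limma, unadjusted p = 0.119, adjusted p = 0.7503). Taking the transcript with the highest mean FPKM in place of the sum turned the day 7 value to 0.04, since that transcript, NM_001143688, went from 67.9% to 86.7% of the gene on day 7 in shEXOSC3.

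MPHOSPH6, the small protein that docks MTREX, had 36.0 and 28.4 FPKM on day 5 and 40.6 and 28.7 FPKM on day 7 in the shEXOSC3 line. In the shNS pairs, 33.2 and 31.6 FPKM were measured on day 5 and 38.7 and 43.5 FPKM on day 7. Both knockdown libraries lay below all 6 others, the closest of which was shNS with doxycycline on day 5. The adjusted log2 differences were -0.27 and -0.65, and 17.3% of genes were lower than MPHOSPH6 on day 5 and 3.30% on day 7. From the estimated 446 to 1057 fragments behind each value, the 95% interval for counting error alone, with no pseudocount, was -0.50 to -0.05 on day 5 and -0.90 to -0.44 on day 7. The day average was -0.46 ± 0.14 (SE, limma, unadjusted p = 0.0259, adjusted p = 0.7503). Setting the doxycycline libraries of each day directly against each other, without their untreated partners, moved the day 5 value to -0.15.

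MTREX, the helicase that NEXT, PAXT and TRAMP share, had the highest mean FPKM of the 10 genes, a level set per length. It had 64.4 and 57.4 FPKM on day 5 and 76.5 and 71.8 FPKM on day 7 in the shEXOSC3 line. The shNS libraries held 65.6 and 67.3 FPKM on day 5 and 82.5 and 77.1 FPKM on day 7. The knockdown library was the lowest of its day both times. The adjusted log2 difference was -0.20 on day 5 and 0.01 on day 7, since shNS also went lower with doxycycline on day 7. With 3983 to 9938 estimated fragments, MTREX had narrower counting intervals than the other 3 genes with 1 transcript (-0.28 to -0.13, and -0.07 to 0.08), and its day average was -0.10 ± 0.12 (SE, limma, unadjusted p = 0.453, adjusted p = 0.841).

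**Figure D2:**
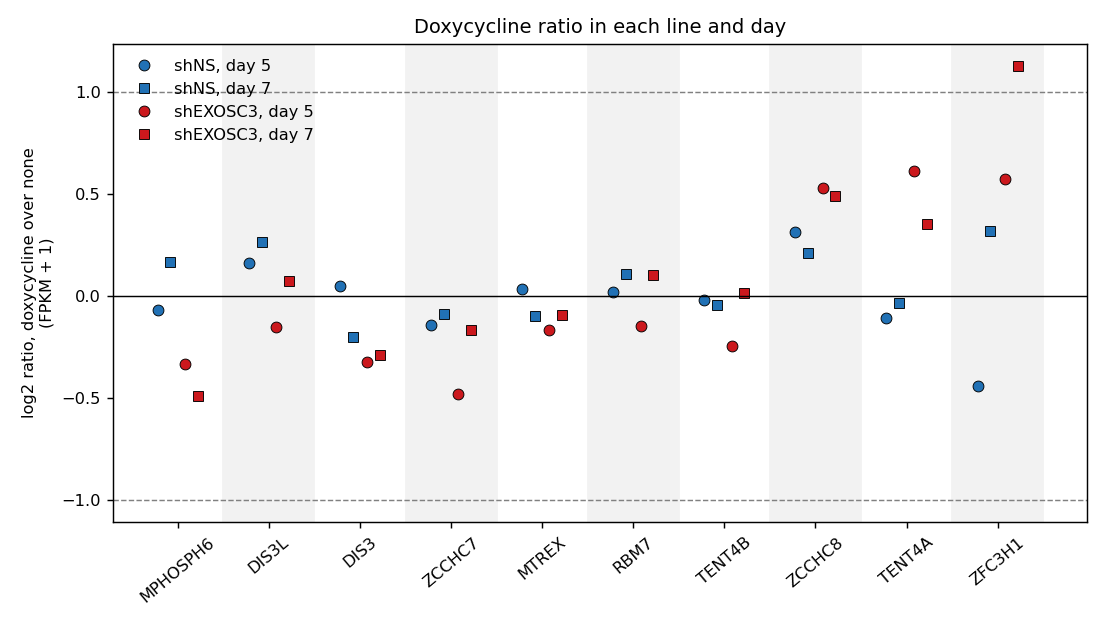
Log2 ratio of doxycycline over no doxycycline (y axis) for each gene in shEXOSC3 and shNS on days 5 and 7; each point is 1 pair of libraries, with no error bars. The shEXOSC3 points of ZFC3H1 (0.57 and 1.13) lie above its shNS points (-0.44 and 0.32), and those of MPHOSPH6 (-0.33 and -0.49) below its own (-0.07 and 0.17).

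Of the NEXT subunits, RBM7, which binds RNA, had 25.5 and 22.9 FPKM on day 5 and 16.5 and 17.8 FPKM on day 7 in the shEXOSC3 line. Its shNS values were 23.1 and 23.4 FPKM on day 5 and 15.01 and 16.2 FPKM on day 7. Its sum followed the day more than the hairpin, and the adjusted log2 differences were -0.17 and -0.0028. The day average was -0.09 ± 0.14 (SE, limma, unadjusted p = 0.555, adjusted p = 0.880). On day 7 the sign was positive by the transcript with the highest mean FPKM (0.40) and by the doxycycline libraries alone (0.13), which on day 5 gave -0.03. That transcript had 0.133 FPKM in both shNS libraries of day 7, so the 0.40 rests on the shEXOSC3 pair.

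The transcripts of RBM7 varied far more than their sum. NM_001286045 and NM_016090 differ by 3 bases where exon 4 begins: at GRCh38 chr11:114405706-114405799 in the first and chr11:114405709-114405799 in the second, plus strand, with coding sequences of 801 and 798 bases. The capitals mark the 3 added bases, with 30 bases on either side. A further transcript, NM_001286046, lacks exon 2 (163 bases, GRCh38 chr11:114401698-114401860, plus strand), shown in capitals as it stands in NM_016090 with 15 bases on either side.
RBM7 NM_001286045: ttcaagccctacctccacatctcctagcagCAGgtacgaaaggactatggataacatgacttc
RBM7 NM_016090: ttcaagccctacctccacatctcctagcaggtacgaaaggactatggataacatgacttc
RBM7 exon 2: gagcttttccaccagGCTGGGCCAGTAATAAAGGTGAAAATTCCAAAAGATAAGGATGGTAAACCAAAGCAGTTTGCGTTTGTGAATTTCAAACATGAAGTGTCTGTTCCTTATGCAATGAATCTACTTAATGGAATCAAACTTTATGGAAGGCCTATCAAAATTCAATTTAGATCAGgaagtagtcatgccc
On day 5 NM_001286045 held 66.9% to 76.9% of the RBM7 FPKM in all 4 libraries, and NM_016090 most of the rest. On day 7 NM_001286045 went from 62.7% to 78.3% with doxycycline in shEXOSC3, while it held 0.9% and 0.8% in shNS. There NM_001286046, the transcript without exon 2, took 88.1% and 99.2%, and in shEXOSC3 it held 37.3% without and 0% with doxycycline. These shares differ between the lines without doxycycline too, and they are the estimates of a program that divides reads among transcripts, so a share can move with no shift in the sum.

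ZCCHC8, the zinc knuckle scaffold of NEXT, had 10.2 and 15.1 FPKM on day 5 and 23.2 and 33.0 FPKM on day 7 in the shEXOSC3 line. With the control hairpin the values were 10.5 and 13.3 FPKM on day 5 and 23.8 and 27.7 FPKM on day 7. It was higher with doxycycline in all 4 pairs, more so in shEXOSC3. The adjusted log2 differences were 0.21 and 0.28, and the counting intervals 0.02 to 0.44 and 0.13 to 0.44. The day average was 0.25 ± 0.11 (SE, limma, unadjusted p = 0.0797, adjusted p = 0.7503).

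ZFC3H1, the zinc finger scaffold that links MTREX to polyadenylated RNA in PAXT, had 5.35 and 8.44 FPKM on day 5 and 6.83 and 16.1 FPKM on day 7 in the shEXOSC3 line. In the shNS pairs, 7.10 and 4.98 FPKM were measured on day 5 and 6.64 and 8.55 FPKM on day 7. The knockdown library was the highest of its day both times, and the 16.1 FPKM of day 7 stood apart from all 7 other libraries. With the pseudocount of 1 FPKM the log2 ratio of doxycycline over none was 0.57 and 1.13 in shEXOSC3 and -0.44 and 0.32 in shNS. The adjusted log2 differences were therefore 1.01 and 0.81, and 98.4% and 96.4% of all genes tested were lower. On day 5 the shNS library with doxycycline was also below its untreated partner, and the doxycycline libraries alone gave 0.66 on day 5 and 0.84 on day 7.

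From 655 to 2172 estimated fragments, the counting interval of the ZFC3H1 difference with no pseudocount was 0.99 to 1.35 on day 5 and 0.70 to 1.05 on day 7. The day average was 0.91 ± 0.33 (SE, limma, unadjusted p = 0.0480, adjusted p = 0.7503). With a pseudocount of 5 FPKM the day 5 value was 0.65. In the authors' deposited table for shEXOSC3 on day 7 the ZFC3H1 transcript had p = 5e-05 and q = 0.105, from 1 library against 1 library. That p was the smallest of the 63 tests the authors deposited for transcripts of the 10 genes. Of these tests 5 had p under 0.05, and the share over all transcripts was not computed. The other 4 were day 5 tests of ZCCHC7 transcripts, in shNS as well as in shEXOSC3.

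ZCCHC7, the zinc knuckle protein of TRAMP, had 24.7 and 17.4 FPKM on day 5 and 32.8 and 29.1 FPKM on day 7 in the shEXOSC3 line. The shNS libraries held 20.3 and 18.3 FPKM on day 5 and 33.6 and 31.5 FPKM on day 7. It was lower with doxycycline in all 4 pairs, and the knockdown library was the lowest of each day. The adjusted log2 differences were -0.34 and -0.08, with a day average of -0.21 ± 0.15 (SE, limma, unadjusted p = 0.223, adjusted p = 0.751). The day 5 value was -0.07 by the doxycycline libraries alone and -0.73 by the transcript with the highest mean FPKM. That transcript, NM_032226, held 97.0% to 99.3% of ZCCHC7 in the 4 libraries of day 7 but 4.7% to 31.1% on day 5, when NM_001289120 held 78.0% in the knockdown library and NM_001289119 held 60.1% in shNS with doxycycline.

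TENT4A, like TENT4B, was among the genes with the lowest FPKM of the 10, with 2.82 and 4.84 FPKM on day 5 and 6.38 and 8.42 FPKM on day 7 in the shEXOSC3 line. Its shNS values were 4.26 and 3.89 FPKM on day 5 and 6.002 and 5.85 FPKM on day 7. It was higher with doxycycline in both shEXOSC3 pairs and slightly lower in both shNS pairs. The adjusted log2 differences were 0.72 and 0.38, and the day average was 0.55 ± 0.15 (SE, limma, unadjusted p = 0.0169, adjusted p = 0.7503). A further accession at the locus, NM_001171806, has no symbol in the reference table. With it added, an alternative chosen after seeing the data, the differences were 0.31 and 0.20, and the shNS ratio of day 7 turned from -0.03 to 0.16. By the doxycycline libraries alone the day 5 value was 0.26.

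The transcripts of TENT4A also split by day. NM_006999 held at least 89.0% of its FPKM in the 4 libraries of day 5, and NM_001171805 held 95.7% to 97.5% in the 4 of day 7. The tables of the 2 lines show the same split with and without doxycycline. These shares leave out NM_001171806, which had 2.03 FPKM in untreated shEXOSC3 on day 5, where NM_006999 had 2.82 FPKM. TENT4B, the poly(A) polymerase of TRAMP, had 5.37 and 4.38 FPKM on day 5 and 5.73 and 5.80 FPKM on day 7 in the shEXOSC3 line. With the control hairpin the values were 4.97 and 4.89 FPKM on day 5 and 5.80 and 5.60 FPKM on day 7. The 8 levels of TENT4B span the smallest range of the 10 genes, and the adjusted log2 differences of TENT4B were -0.23 and 0.06 (day average -0.08 ± 0.14, SE, limma, unadjusted p = 0.588, adjusted p = 0.894).

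**Figure D3:**
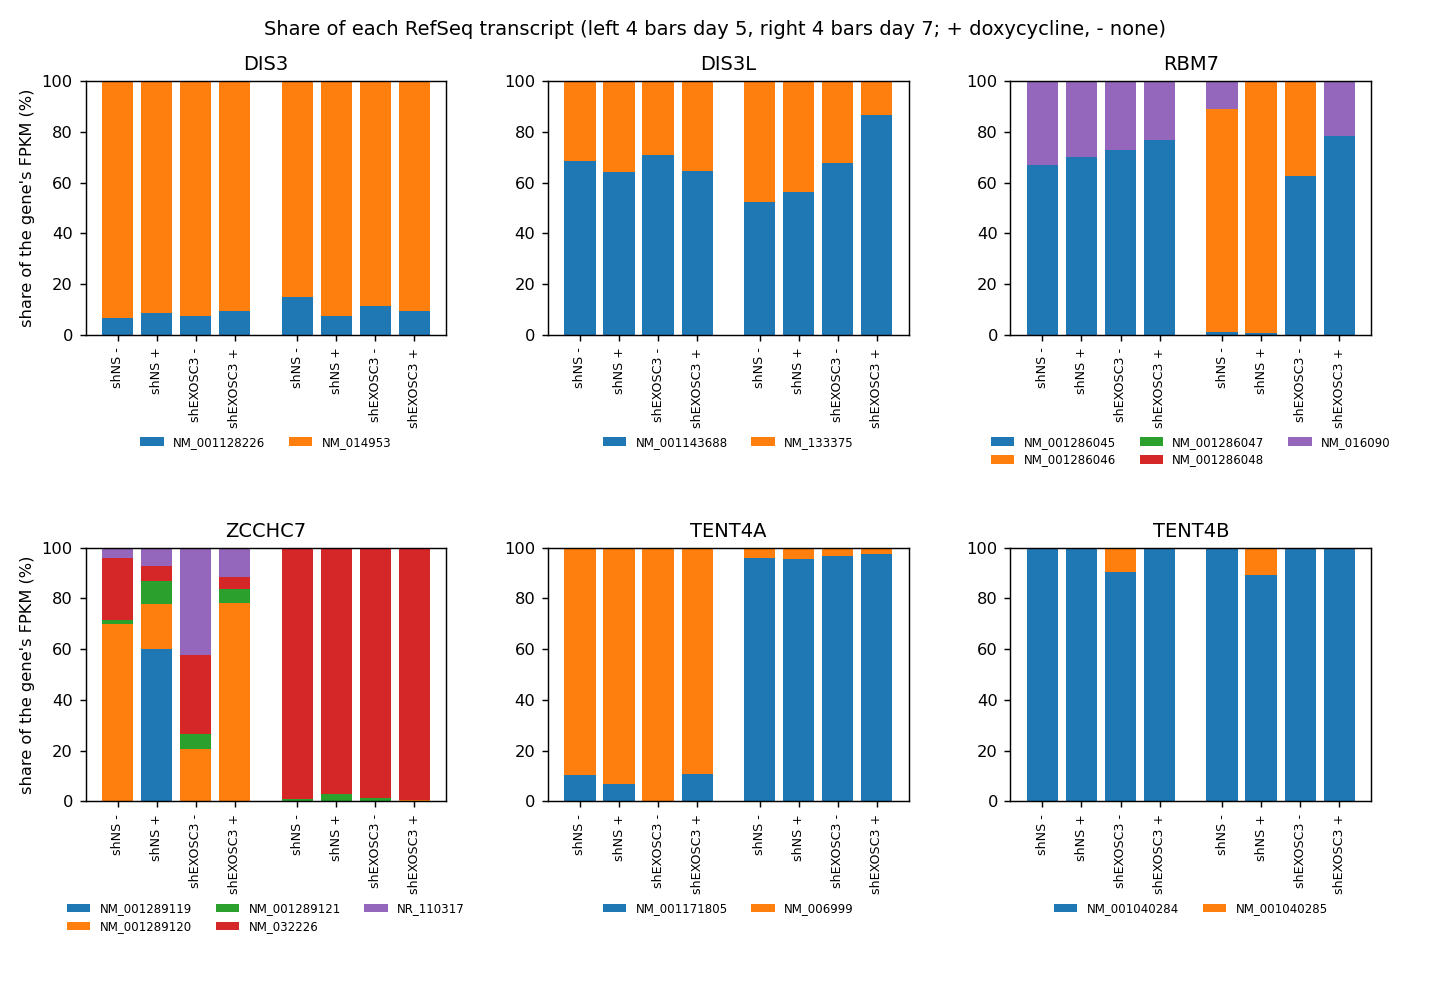
Share of each RefSeq transcript (% of the gene's summed FPKM, y axis) in the 8 libraries for the 6 genes with several transcripts; each bar is 1 library. NM_006999 fills at least 89.0% of the TENT4A bars on day 5 and 2.5% to 4.3% on day 7, while TENT4B stays with NM_001040284 in every library (89.3% or more). The TENT4A bars leave out NM_001171806.

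Counted over the 10 genes, 3 had an adjusted log2 difference above 0 on both days (ZCCHC8, ZFC3H1 and TENT4A), as did 26% of all genes tested, and 5 had one below 0 on both days (DIS3, DIS3L, MPHOSPH6, RBM7 and ZCCHC7), as did 28.7%. MTREX and TENT4B had opposite signs on the 2 days. The median over the 10 genes was -0.21 on day 5 and 0.0013 on day 7, against 0 and -0.01 over all genes tested. The day 5 median was -0.10 by the doxycycline libraries across tables, and 0.0077 over the 4 genes with 1 transcript, a subset chosen after seeing the data. On day 5 the NEXT partners ZCCHC8 and RBM7 had differences of opposite sign, as had the paralogs TENT4A and TENT4B.

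By size, no gene of the 10 was at least 2-fold apart in the same direction on both days, against 0.306% of all genes higher and 0.187% lower. ZFC3H1 passed 2-fold on day 5 (1.58% of genes did so upwards and 1.03% downwards), and none passed it on day 7 (2.38% upwards and 1.9% downwards). By the ratio in shEXOSC3 alone, ZFC3H1 was past 2-fold on day 7 (1.98% of genes were upwards and 1.17% downwards). None of the 10 was past it in shEXOSC3 on day 5 (1.37% upwards and 0.807% downwards). In shNS none was past it on day 5 (0.747% and 0.627%) or on day 7 (1.32% and 0.926%). With limma, 0 of the 10 had an adjusted p under 0.05, as had 0% of all genes. At an unadjusted p under 0.05 there were 3 (ZFC3H1 and TENT4A higher, MPHOSPH6 lower), against 5.83% of all genes in either direction, 3.11% higher and 2.72% lower.

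The tables were made separately. Across them, the 2 knockdown libraries were set against the other 6 by an exact permutation test, two-sided, of the mean log2(FPKM + 1). MPHOSPH6 was the gene with both knockdown libraries outside the range of the other 6 (28.4 and 28.7 against 31.6 to 43.5 FPKM), as were 6.9% of all genes, 3.31% downwards and 3.59% upwards. Its exact p was 0.0714, the smallest that 28 splits allow, so no gene could pass 0.05; the other 9 had exact p of 0.143 to 0.857. After each library was scaled by its upper quartile, ZFC3H1 was outside the range too. Within each day, a comparison chosen after seeing the data, the knockdown library was the highest or the lowest of 4 on both days for 7 of the 10 genes, as for 33% of all genes. It was highest for ZCCHC8, ZFC3H1 and TENT4A (17% of all genes) and lowest for DIS3, MPHOSPH6, MTREX and ZCCHC7 (15.9%).

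**Figure D4:**
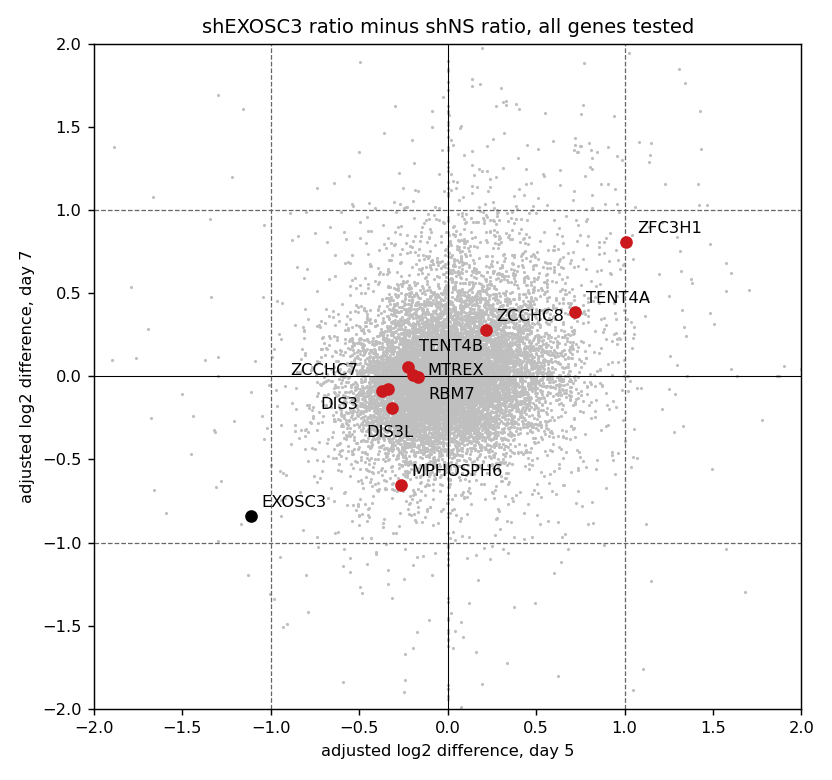
Adjusted log2 difference on day 5 (x axis) against day 7 (y axis) for all genes tested (grey points), the 10 genes (red) and EXOSC3 (black); 445 genes beyond 2 on either axis are not drawn and dashed lines mark 2-fold. ZFC3H1 lies at 1.01 and 0.81 and MPHOSPH6 at -0.27 and -0.65. By day average, 34.4% of all genes tested were lower than MTREX, 36.0% lower than RBM7 and 36.4% lower than TENT4B. The other members lay further from the middle, from 3.82% for MPHOSPH6 to 97.8% for ZFC3H1.

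The FPKM of each adaptor as a share of that of MTREX shows how adaptors stood against their shared helicase in each library. ZFC3H1 was at 8.31% of the MTREX FPKM without and 14.7% with doxycycline on day 5 in shEXOSC3, and at 8.93% and 22.4% on day 7. In shNS it was at 10.8% and 7.40% on day 5 and at 8.05% and 11.1% on day 7. The 22.4% of the day 7 knockdown library was the highest of the 8. ZCCHC8 ranged over the 8 libraries from 15.8% to 46.0% of MTREX, RBM7 from 18.2% to 39.9%, ZCCHC7 from 27.2% to 42.9%, TENT4A from 4.38% to 11.7% and TENT4B from 7.03% to 8.34%. By mean FPKM the 10 genes stood in the order MTREX, MPHOSPH6, ZCCHC7, DIS3, RBM7, ZCCHC8, DIS3L, ZFC3H1, TENT4B and TENT4A. The last pair had almost the same mean (5.32 and 5.31 FPKM), and the ranges over the 8 libraries overlapped between all neighbours in that order but MTREX and MPHOSPH6.

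Several of the genes differed more between the days than with the hairpin. In the untreated libraries, compared across tables, the log2 difference of day 7 over day 5 was 1.12 in shEXOSC3 and 1.11 in shNS for ZCCHC8, the gene of the 10 that was at least 2-fold higher in both lines, as were 6.13% of all genes (10.5% were as far lower). For RBM7 it was -0.59 in both lines. DIS3 (0.52 and 0.66), ZCCHC7 (0.40 and 0.70) and TENT4A (0.95 and 0.41) were higher on day 7 in both lines, and DIS3L was lower (-0.31 and -0.25). MTREX (0.24 and 0.33), MPHOSPH6 (0.17 and 0.22) and TENT4B (0.08 and 0.19) differed less, and ZFC3H1 had 0.30 and -0.08. The median over all genes was -0.08 in both lines, and day and table cannot be told apart.

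The other genes of exosome biology, from 4 lists, are given beside the 10. Over all genes tested, 26% had an adjusted log2 difference above 0 on both days and 28.7% one below. With limma, 5.83% of all genes had an unadjusted p under 0.05. Of 11 exosome core genes, 1 was above 0 on both days, 5 below and 5 split, with medians of -0.24 and 0.09. EXOSC6, a ring subunit of the barrel, was the highest (0.31 and 0.62) and EXOSC3, the target, the lowest (-1.11 and -0.84). Past 2-fold on both days there was none, and with limma 0 had an adjusted p under 0.05; at an unadjusted p under 0.05 EXOSC6 was higher, and EXOSC3 and C1D (-0.47 and -0.35) were lower. EXOSC3 had a day average of -0.98 ± 0.12 (SE, limma, unadjusted p = 0.000863, adjusted p = 0.7503).

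Of 20 nuclear partners, such as the cap-binding complex and proteins that bind MTREX, 6 were above 0 on both days, 5 below and 9 split, with medians of 0.07 and -0.07. ZC3H4, which acts in early termination of non-coding transcription, was the highest (0.64 and 0.06) and WDR74, which works with MTREX in ribosome assembly, the lowest (-0.39 and -0.23). PABPN1, the poly(A) binding partner of ZFC3H1, had 0.51 and 0.03. Of 7 cytoplasmic cofactors, 1 was above, 2 below and 4 split (medians -0.14 and -0.06); the nuclease DIS3L2 was the highest (0.04 and 0.46) and the SKI-linked HBS1L the lowest (-0.21 and -0.16). Of 10 further terminal nucleotidyltransferases, 8 were measured at the minimum level, with 2 above, 4 below and 2 split (medians 0.04 and -0.09), TENT5A the highest (0.08 and 0.24) and TENT2 the lowest (-0.08 and -0.14). In these 3 lists no gene passed 2-fold on both days and limma called 0 at an adjusted p under 0.05; at an unadjusted p under 0.05 there was 1, NVL (-0.25 and -0.31), lower.

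For ZFC3H1, the gene of the 10 with the largest mean difference, the genes with the most similar 4 log2 ratios were sought among 13115 genes by Euclidean distance. The closest were FGF14-AS2 at a distance of 0.285, RTL8A at 0.354, LINC01004 at 0.371 and DLGAP4-AS1 at 0.4002. Their adjusted log2 differences were 0.85 and 0.63 for FGF14-AS2, 1.14 and 0.90 for RTL8A, 0.76 and 0.43 for LINC01004 and 0.87 and 1.16 for DLGAP4-AS1. These differences are formed from the same ratios that picked the genes, so their likeness to ZFC3H1 is no separate result. A gene that shares the locus of ZFC3H1 in the tables, THAP2, had 0.04 and 0.33.

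In hg19, the build of the tables, the loci of the 10 genes do not overlap each other. ZFC3H1 is at chr12:72003379-72074428 and ZCCHC8 at chr12:122956146-122985620, MPHOSPH6 at chr16:82181767-82203829 and TENT4B at chr16:50186829-50269219. TENT4A is at chr5:6714718-6757161 and MTREX at chr5:54603576-54830906. DIS3 is at chr13:73282495-73590591, DIS3L at chr15:66585633-66626236, RBM7 at chr11:114262170-114281332 and ZCCHC7 at chr9:37120469-37358145. A locus here is the span the tables assign to a group of overlapping transcripts, so that of DIS3 also covers BORA, MZT1 and PIBF1, that of MTREX also PLPP1, RNF138P1 and MIR5687, and that of RBM7 also C11orf71, while THAP2 falls in that of ZFC3H1. The use of strand in counting is not stated, so reads of overlapping neighbours may not be separated.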

How the data were processed

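Trizol-extracted H1 RNA was rid of rRNA by Ribo-Zero before ScriptSeq v2 library preparation, per the labels' protocols. CASAVA 1.8, TopHat and Cufflinks were used with hg19 (GRCh37), per the submitters' processing notes. Not given in the sources used here: other versions, annotation, normalization and use of strand.

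The deposited values are FPKM per RefSeq transcript in 4 Cuffdiff tables, each pairing the doxycycline library of a line and day with its untreated one, per the file headers. The authors' deposited p-values and q-values compare 1 library with 1 library. No read counts are given. Tables were made separately, so ratios were formed within a table unless stated.

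Accessions were matched to symbols through RefSeq (48147 of 49235 had one). Where transcripts were summed, genes with any of the 164 transcripts whose estimate had failed or was too deep were left out whole. FPKM were summed per gene, genes with a mean of at least 1 FPKM were tested, and a pseudocount of 1 was used. limma 3.58.1 in R 4.3.3 was fitted to 4 ratios with a trend on expression and 2 residual degrees of freedom. It was tested on simulated data of 13387 genes, with normal noise whose spread was shared by genes of similar expression. Of 50 genes each, 8% were recovered at a log2 change of 1, 60% at 2, 96% at 4 and 100% at 6. There were 10 false calls. Single genes of the real data need not share that spread, so these recovery rates may not carry over to them. Other steps used Python 3.11.15.

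Fragment numbers were estimated from low FPKM values. After scaling for depth, 91.3% to 96.3% of ratios between low values lay within 0.5% of a ratio of whole numbers from 1 to 10. Intervals are Wald 95% and cover counting error only. They are approximate. RefSeq transcript structures for the printed sequences came from GENCODE 29 on GRCh38.

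The 10 genes, the lists and the alternatives were chosen with earlier results of these data known. Genes named were the 10, EXOSC3, the highest and lowest of each list by mean difference, any past 2-fold on both days, and the 5 nearest to the gene with the largest mean difference, of which 1 is not reported here. C1D, NVL, PABPN1, THAP2, NES and C11orf71 were added after their values were seen.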

Additional observations from a re-analysis of the deposited data

Results flagged for a closer look

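TENT4A was picked out because its response to doxycycline differed between the lines: the log2 ratio was positive in both shEXOSC3 pairs (0.61 and 0.35) and negative in both shNS pairs (-0.11 and -0.03). The difference of the averages was 0.55 ± 0.15 (SE, limma, unadjusted p = 0.0169). Over all genes it did not pass (adjusted p = 0.7503). With the accession NM_001171806 at its locus added, the shNS ratio of day 7 was 0.16, so the signs no longer separated the lines, and the averages differed by 0.26. With 1 library per group and day the difference has no replicate check.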

How the results depend on the processing

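The labels give no replicate numbers and each group has 1 library, so no fit by replicate number was made. Each ratio pairs a doxycycline library with its untreated partner, and a fit of these ratios with the day as a block also called 0 of the 10 genes. In that fit, with 1 residual degree of freedom, limma gave unadjusted p = 0.00378 for ZFC3H1, 0.0478 for MPHOSPH6 and 0.0318 for TENT4A. The adjusted p of each was 0.731. By the doxycycline libraries across tables, limma gave unadjusted p = 0.1995 for ZFC3H1, 0.2255 for MPHOSPH6 and 0.420 for TENT4A. Without the trend, ZFC3H1 had unadjusted p = 0.0574 (limma). Under 10 settings of limma, 0 of the 10 had an adjusted p under 0.05, with smallest adjusted p of 0.731 to 1 and 0 to 3 genes at an unadjusted p under 0.05; of all genes, 2 were called with 8 libraries in 1 fit and 2 without the trend. Under 7 settings 0 of the 10 were 2-fold apart on both days. Of 20 differences per gene and day, 18 kept their sign by the transcript with the highest mean FPKM (not DIS3L and RBM7 on day 7) and 18 by the doxycycline libraries across tables (not MTREX and RBM7 on day 7). The day 5 median, -0.21, was -0.10 by the doxycycline libraries across tables and 0.0077 over the 4 genes with 1 transcript. The count outside the other 6 libraries, 1, was 2 after upper quartile scaling. Within each day it was 7 as deposited, 7 after that scaling and 7 by the top transcript, comparisons chosen after seeing the data. Leaving out a library removes its group, so it was not run. Counting intervals were made for the 4 genes with 1 transcript. Those of ZFC3H1, MPHOSPH6 and ZCCHC8 did not include 0 on either day, and that of MTREX included 0 on day 7 only. The spread between cultures was not measured.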

Other observations

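C11orf71, which shares the locus of RBM7 in the tables, had 5.78 and 9.60 FPKM (without and with doxycycline) on day 5 and 3.76 and 9.32 FPKM on day 7 in the shEXOSC3 line. In the shNS pairs, 9.06 and 8.35 FPKM were measured on day 5 and 5.36 and 4.28 FPKM on day 7. Both knockdown libraries lay above all 6 others. The adjusted log2 differences were 0.75 and 1.39 and the day average 1.07 ± 0.20 (SE, limma, unadjusted p = 0.00452, adjusted p = 0.7503), while RBM7 itself had -0.17 and -0.0028. The gene was chosen after its values were seen, and whether reads of the overlapping genes were separated was not tested.

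The accession NM_001171806 at the TENT4A locus had 2.03 and 0.781 FPKM on day 5 and 0.277 and 0.384 FPKM on day 7 in the shEXOSC3 line. The shNS libraries held 0.772 and 0.616 FPKM on day 5 and 0.609 and 1.63 FPKM on day 7. Its adjusted log2 differences were -0.63 and -0.59, opposite in sign to those of TENT4A, at levels mostly below 1 FPKM.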
